A study of Mus musculus with 6 samples.

Results

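The signals that surround the intestinal crypt were examined through 10 genes in RNA-seq libraries of mouse small intestinal mucosa: the R-spondins Rspo1 and Rspo3, the BMP antagonists Grem1, Chrd and Chrdl1, the BMP ligand Bmp4, the Hedgehog ligand Ihh with its receptor Ptch1 and its effector Gli1, and the Hedgehog-dependent transcription factor Foxl1. They were taken by name from the 38561 genes counted, and 10 of 10 passed the filter on low counts that left 16425 genes to be tested. The 6 libraries were polyA RNA from C57BL/6J mice of 8 to 12 weeks, 3 labelled Rbm47_IKO and 3 labelled wt, each a pool of 3 mice of both sexes. In the Rbm47-IKO mice a constitutive villin Cre, active in epithelial and not in mesenchymal cells, deletes floxed Rbm47, which encodes an RNA-binding protein. The paper describes the control mice as floxed and gives a somewhat wider age range and some larger pools, whereas the labels give wild type, and the labels are followed here. The comparison addresses whether niche signal transcripts differ between mucosa of mice labelled as with and without the epithelial deletion, given how much muscle and stroma each pool holds.

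R-spondins are secreted proteins that bind LGR receptors on crypt cells and keep the ubiquitin ligases ZNRF3 and RNF43 from removing WNT receptors. BMP ligands restrain proliferation and favour differentiation along the villus, and antagonists made by cells below the crypt limit BMP signaling around stem cells. Indian hedgehog runs the other way: epithelial cells secrete it, and mesenchymal cells with PTCH1 on their surface answer through GLI transcription factors.

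The libraries held 31560320 to 38951830 counts on genes. Rbm47 (ENSMUSG00000070780, chr5:66016549-66173117) had a normalized CPM (the count scaled to library size, after TMM normalization) of 602.7, 624.6 and 619.8 in the 3 pools labelled Rbm47-IKO and 459.8, 449.9 and 472.1 in the wt pools. The targeted gene was therefore not lower in the labelled pools (log2 fold change 0.42, SE 0.10, edgeR adjusted p = 0.0751), and the count covers every exon of the gene, the floxed part and the rest together. Rbm47 was abundant in both groups, so its counts do not show in which pools it was deleted. The groups are called by their labels, as the pools labelled Rbm47-IKO, and each direction below, that of Ihh included, rests on those labels. Each would be reversed if the labels were exchanged. Epithelial markers were abundant in every pool, with 8 genes summing to 11990 to 14723 CPM, whereas pools differed widely in muscle. The 8 smooth muscle genes summed to 380.4, 618.7 and 3447 CPM in the pools labelled Rbm47-IKO and to 97.5, 2911 and 332.0 in wt, so that pool 3 of the former and pool 2 of the latter stood apart as muscle-rich. Each result is therefore set beside these sums.

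Among the 10 genes, Ihh passed the test between genotypes, being higher in every pool labelled Rbm47-IKO. It was the sole gene of the 10 with an adjusted p of 0.05 or less by edgeR's quasi-likelihood test, where 2.7% of all genes tested passed in either direction and 1.45% passed as higher. A log2 fold change above 0 was found for 9 of the 10 genes, against 49.3% of all genes, with a median of 0.72 against -0.0059 over all genes. This median was 0.37 when the muscle score of each pool entered the fit, 0.69 with the fibroblast score and 0.16 with the mesothelium score. It was 1.14 without both muscle-rich pools and ran from 0.18 (without pool 3 labelled Rbm47-IKO) to 1.47 (without wt pool 2) with a pool left out. Among marker lists, 5 of 5 mesothelium genes (median 0.67) and 7 of 8 smooth muscle genes (0.37) were above 0 too. For fibroblast genes it was 5 of 8 (0.10) and for blood endothelial genes 0 of 6 (-0.46). With all pools and genotype alone, 1 of the 10 reached an unadjusted p under 0.05, Ihh again, against 16.8% of all genes. With the fibroblast score in the edgeR fit, Grem1 (0.00271), Rspo1 (0.0275) and Chrd (0.0395) reached it too, among 3103 of 16425 genes. With the muscle score Grem1 did (0.0341), among 2931 of 16425 genes. None of these passed the adjusted threshold. Without wt pool 2 the edgeR adjusted p was 0.103 for Rspo1, 0.116 for Chrdl1, 0.135 for Ptch1 and 0.141 for Chrd. It was 0.159 for Grem1, 0.178 for Rspo3, 0.245 for Bmp4, 0.408 for Foxl1 and 0.540 for Gli1. In that fit 3667 of 16725 genes had an unadjusted p under 0.05. Without both muscle-rich pools these adjusted p ran from 0.103 (Chrdl1) to 0.644 (Gli1), with 3483 of 16335 genes under 0.05 unadjusted.

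The study designed quantitative PCR primers for Rspo1 and Chrd, and these are shown because they mark the stretch of each transcript that the study chose to assay. Primers are written 5′ to 3′ in lower case, with no part marked, and were matched to GENCODE M21 transcripts on GRCm38.
Rspo1 forward: ccgctaacagcaccatgga
Rspo1 reverse: ccactcgctcatttcacattgt
Chrd forward: atcaggtgcaagtggtaggtacag
Chrd reverse: tcttccgctgaggcttggt
Both genes lie on the plus strand, and the reverse primers are the complement of that strand. The Rspo1 pair falls in coding exons 4 (chr4:125007264-125007282) and 5 (chr4:125007585-125007606) of the 6 exons of transcript Rspo1-201, with a product of 56 bases after splicing. The forward Chrd primer spans the junction of exons 11 and 12 of 23 in Chrd-201 (chr16:20736139-20736282, intron included), the reverse primer lies in exon 12 (chr16:20736312-20736330), and the product is 72 bases. The counts analysed here cover all exons of each gene and not these stretches alone.

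Ihh (ENSMUSG00000006538, chr1:74945319-74951651, minus strand) encodes Indian hedgehog, the Hedgehog ligand that the intestinal epithelium secretes. Its normalized CPM was 111.7, 107.0 and 99.5 in the pools labelled Rbm47-IKO and 66.6, 61.7 and 70.0 in the wt pools. The groups did not overlap, as holds for 11.7% of all genes in this direction, and the lowest labelled pool was well above the highest wt pool. Means were 106.1 ± 6.12 and 66.1 ± 4.14 (SD, n = 3 pools each), a rise of 1.60-fold (95% interval 1.36 to 1.89; log2 fold change 0.68, SE 0.10, edgeR adjusted p = 0.0189). In bulk mucosa, a change in the number of cells of a type and a change in RNA per cell cannot be told apart. Of the 8 epithelial markers, 0 passed in edgeR (2.7% of all genes) and 1 had an unadjusted p under 0.05 (16.8%). Their median log2 fold change was 0.040. By DESeq2 1 passed (7.62%), as did 1 with the fibroblast score in the edgeR fit (4.91%). With the muscle score, or scaled by library size only, 1 passed too (718 and 614 genes in all). Ihh showed no detectable relation to the muscle of a pool, and its slope on the muscle score was -0.034 log2 units per log2 unit (adjusted p = 0.747). With that score in the fit the log2 fold change was 0.72 (adjusted p = 0.0116). Between the muscle-rich pools, labelled pool 3 and wt pool 2, the ratio was 1.61, and between labelled pool 1 and wt pool 3, which had like muscle sums, it was 1.60. Its log2 fold change lay between 0.64 and 0.73 when any 1 pool was left out, yet the adjusted p was above 0.05 without pool 1 (0.112), pool 2 (0.137) or pool 3 (0.0570) labelled Rbm47-IKO, without wt pool 3 (0.0621), and without both muscle-rich pools (0.0565).

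**Figure D1:**
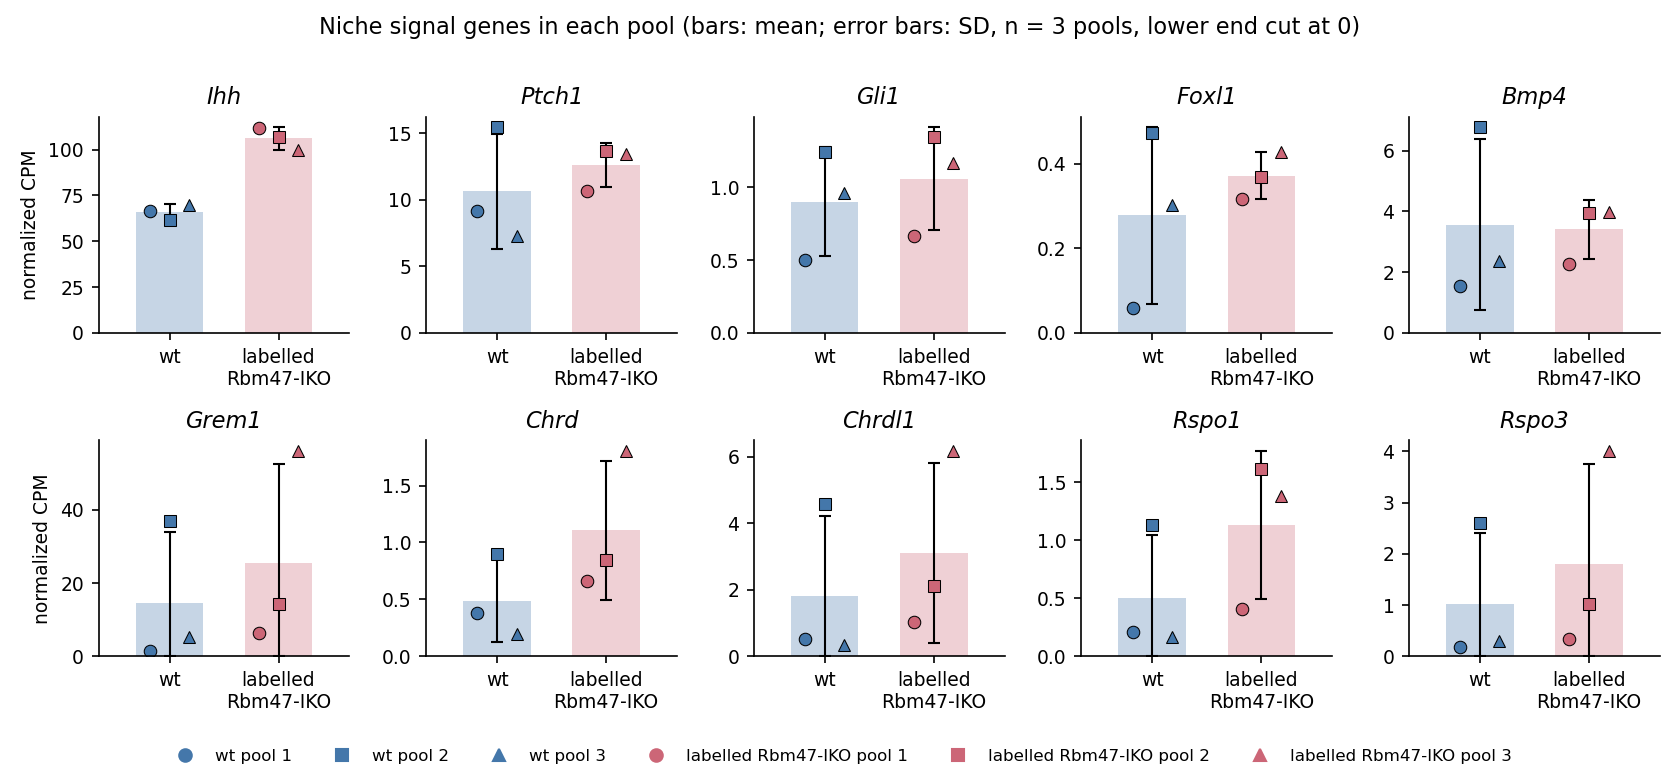
Normalized CPM of the 10 genes in each pool, with 1 panel per gene, an axis from 0, bars at the mean and error bars of 1 SD over 3 pools per genotype (the lower end stops at 0). The Ihh pools labelled Rbm47-IKO, at 99.5 to 111.7, lie above the wt pools, at 61.7 to 70.0, whereas the pools overlap in the other panels.

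Ptch1 (ENSMUSG00000021466, chr13:63511533-63565520, minus strand) encodes the Hedgehog receptor and is itself a transcriptional target of the pathway. It measured 10.7, 13.7 and 13.4 CPM in the pools labelled Rbm47-IKO and 9.18, 15.4 and 7.24 in wt. Its highest value was that of the muscle-rich wt pool 2, and the groups overlapped. Its log2 fold change was 0.25 (SE 0.28, 95% interval -0.40 to 0.89, adjusted p = 0.755), or 0.62 without wt pool 2 and 0.038 without wt pool 3.

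Gli1 (ENSMUSG00000025407, chr10:127329889-127341589, minus strand), the transcriptional activator that is also a standard readout of Hedgehog signaling, was low. Counts were 23, 51 and 38 in the pools labelled Rbm47-IKO and 17, 47 and 35 in wt, or 0.664, 1.35 and 1.16 against 0.500, 1.24 and 0.960 CPM. Pool 1 was the lowest and pool 2 the highest within either genotype. The groups overlapped in part, with labelled pool 2 above every wt pool and wt pool 1 below every labelled pool. A log2 fold change of 0.23 (SE 0.44, 95% interval -0.79 to 1.25, adjusted p = 0.870) was smaller than its error, and it was -0.054 without wt pool 1. The exons of Gli1 share 55 bases with Arhgap9 and 265 bases with Gm47200 on the opposite strand, and whether the counting used strand is not given in the sources used here.

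Foxl1 (ENSMUSG00000097084, chr8:121127940-121130644, plus strand), a marker of the subepithelial mesenchymal cells known as telocytes, gave 11, 14 and 14 counts in the pools labelled Rbm47-IKO and 2, 18 and 11 in wt. Wt pool 1 was under 3 counts, the smallest level told from none, and wt pool 2 was the highest of the 6. In CPM the values were 0.318, 0.370 and 0.429 against 0.0588, 0.474 and 0.302, and the log2 fold change was 0.40 (SE 0.63, 95% interval -1.06 to 1.86, adjusted p = 0.839). Without wt pool 1 it was -0.063. The rise of the ligand Ihh thus stood beside 3 downstream genes whose differences did not pass the test, with intervals that hold both the fold change of Ihh and no change.

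Of 18 other Hedgehog pathway genes, 15 were tested and none passed in edgeR in either direction (9 above 0, median log2 fold change 0.20), with 2 at an unadjusted p under 0.05, against 16.8% of all genes. DESeq2 passed 1 of them, as it did 7.62% of all genes, and edgeR with the fibroblast score in the fit passed 1, as it did 4.91% of all genes. The largest differences were those of the coreceptors Gas1 (0.72, adjusted p = 0.782) and Cdon (0.64, adjusted p = 0.135). Cdon measured 18.9, 22.2 and 26.6 CPM in the pools labelled Rbm47-IKO and 15.1, 17.0 and 11.4 in wt. Every labelled pool was thus above every wt pool for Cdon, as it was for 2 of the 15 genes (Sufu, an inhibitor of GLI proteins, was the other) and for 11.7% of all genes, but the adjusted threshold was missed. At the other end were the decoy receptor Hhip (-0.20, adjusted p = 0.929) and the ciliary regulator Kif7 (-0.13, adjusted p = 0.955). The ligand Shh had 3 to 14 counts in any pool and was not tested, nor was Dhh.

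Bmp4 (ENSMUSG00000021835, chr14:46383520-46390669, minus strand), the principal mesenchymal BMP ligand of the gut, was 2.28, 3.96 and 3.98 CPM in the pools labelled Rbm47-IKO and 1.56, 6.77 and 2.36 in wt. The muscle-rich wt pool 2 was the highest and wt pool 1 the lowest, so that the wt range enclosed the labelled pools. Means were 3.41 ± 0.975 and 3.56 ± 2.81 (SD, n = 3 pools each), with a log2 fold change of -0.066 (SE 0.53, 95% interval -1.31 to 1.18, adjusted p = 0.974). The sign was not settled, since the log2 fold change was 0.80 without wt pool 2 (adjusted p = 0.245) and 0.15 without pool 1 labelled Rbm47-IKO (adjusted p = 0.948). Its exons share 89 bases with Gm15217 on the opposite strand.

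Grem1 (ENSMUSG00000074934, chr2:113746164-113758646, minus strand) encodes gremlin 1, a secreted BMP antagonist of the cells beneath the crypt and of the muscularis mucosae. Its within-genotype SD of log2 CPM, 1.96, was the largest of the 10. Grem1 measured 6.27, 14.4 and 56.2 CPM in the pools labelled Rbm47-IKO and 1.59, 37.0 and 5.30 in wt. The muscle-rich pool of each genotype was far above its fellows, by 8.97-fold from lowest to highest pool within the labelled group and 23.3-fold within wt. Means of 25.6 ± 26.8 and 14.6 ± 19.4 (SD, n = 3 pools each) gave a log2 fold change of 0.81 with an SE of 1.12 (95% interval -1.80 to 3.41, adjusted p = 0.814). Without pool 3 labelled Rbm47-IKO it was -0.50, and without wt pool 2 it was 2.89, neither with an adjusted p of 0.05 or less. With the muscle score in the fit it was 0.40 (95% interval 0.037 to 0.77, adjusted p = 0.232). With the fibroblast score it was 0.76 (95% interval 0.34 to 1.18, adjusted p = 0.0523) and with the mesothelium score 0.17 (adjusted p = 0.952).

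Chrdl1 (ENSMUSG00000031283, chrX:143285674-143394262, minus strand), a chordin-like BMP antagonist, had the same high pools. Its CPM was 1.04, 2.11 and 6.19 in the pools labelled Rbm47-IKO and 0.529, 4.58 and 0.357 in wt. Both muscle-rich pools exceeded the remaining 4, and the groups overlapped. This gave a log2 fold change of 0.76 (SE 1.01, 95% interval -1.58 to 3.10, adjusted p = 0.802), which was -0.21 without pool 3 labelled Rbm47-IKO and 2.80 without wt pool 2.

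Chrd (ENSMUSG00000006958, chr16:20733127-20742384, plus strand), the gene of chordin, which sequesters BMP ligands outside the cell, was sparse. Counts were 23, 32 and 59 in the pools labelled Rbm47-IKO and 13, 34 and 7 in wt, or 0.664, 0.845 and 1.81 against 0.382, 0.896 and 0.192 CPM. Wt pool 2 lay above the lower 2 of the labelled pools, and the other wt pools lay below them. The log2 fold change was 1.16 (SE 0.62, 95% interval -0.29 to 2.61, adjusted p = 0.417). It was 0.62 without pool 3 labelled Rbm47-IKO and 1.94 without wt pool 2. With the muscle score in the fit it was 0.85 (adjusted p = 0.357), and with the fibroblast score 1.01 (adjusted p = 0.233). Chrd shares 154 exonic bases with Thpo on the opposite strand.

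Of 30 other genes of the BMP pathway, 27 were tested, and 1 was higher and 0 lower at an adjusted p of 0.05 or less, a share near the 2.7% of all genes. The 1 was Smad6, an inhibitory SMAD that BMP signaling induces, at 55.7, 52.8 and 52.4 CPM in the pools labelled Rbm47-IKO and 36.0, 34.4 and 40.3 in wt (log2 fold change 0.54, SE 0.10, adjusted p = 0.0393). Its pools did not overlap. The list had a median log2 fold change of 0.20, with 19 genes above 0, and 6 had an unadjusted p under 0.05 (16.8% of all genes did). In 2 genes every labelled pool was higher and in 2 every wt pool was, against 11.7% and 11.6% of all genes. The ID genes are transcriptional targets of BMP, and of these Id4 measured 0.98 (adjusted p = 0.460), Id3 0.57 (adjusted p = 0.121) and Id1 0.45 (adjusted p = 0.226), while Id2 lay on the other side at -0.32 (adjusted p = 0.277). Id3 was 125.1, 162.1 and 110.6 CPM in the labelled pools and 79.4, 100.3 and 87.6 in wt, without overlap but short of the threshold. Id2 was 14.4, 17.6 and 18.3 CPM in the labelled pools and 21.1, 22.4 and 19.5 in wt, so that every wt pool was the higher, also short of the threshold. The lowest values were those of the ligand Bmp5 (-0.72, adjusted p = 0.580) and the type II receptor Acvr2a (-0.62, adjusted p = 0.0712). The number of these genes past the threshold ran from 0 to 3 over the alternatives, so the call of Smad6 was not held in each.

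Rspo1 (ENSMUSG00000028871, chr4:124986430-125009099, plus strand) encodes R-spondin 1, a WNT agonist that enlarges the crypt compartment when supplied to mice. Counts were 14, 61 and 45 in the pools labelled Rbm47-IKO and 7, 43 and 6 in wt, or 0.404, 1.61 and 1.38 against 0.206, 1.13 and 0.165 CPM. Labelled pools 2 and 3 and wt pool 2 were high and the remaining 3 were low, so that the groups overlapped. The log2 fold change of 1.16 had an SE of 0.81 (95% interval -0.72 to 3.04, adjusted p = 0.549), and it ran from 0.75 without wt pool 3 to 2.59 without wt pool 2. With the muscle score in the fit it was 1.06 (adjusted p = 0.354), and with the fibroblast score 1.19 (adjusted p = 0.193). Labelled pools 2 and 3 and wt pool 2 were the 3 highest for 9 of the 10 genes, all but Ihh, against 11.0% of all genes tested. They were also the 3 highest for the muscle and fibroblast sums. Mesothelial RNA was high in them too: Msln, Upk3b, Wt1, Lrrn4 and Bnc1, which mark the serosal lining, summed to 3.15, 16.7 and 13.5 CPM in the labelled pools and 2.59, 17.0 and 1.48 in wt. With the mesothelium score in the fit the log2 fold change of Rspo1 was 0.53 (adjusted p = 0.577), that of Rspo3 0.060 (adjusted p = 0.985) and that of Ptch1 0.024 (adjusted p = 0.975), while that of Chrd was 0.76 (adjusted p = 0.544), that of Bmp4 -0.42 (adjusted p = 0.601) and that of Ihh 0.74 (adjusted p = 0.0260). The part of mesothelial content in these differences was not tested beyond this fit.

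**Figure D2:**
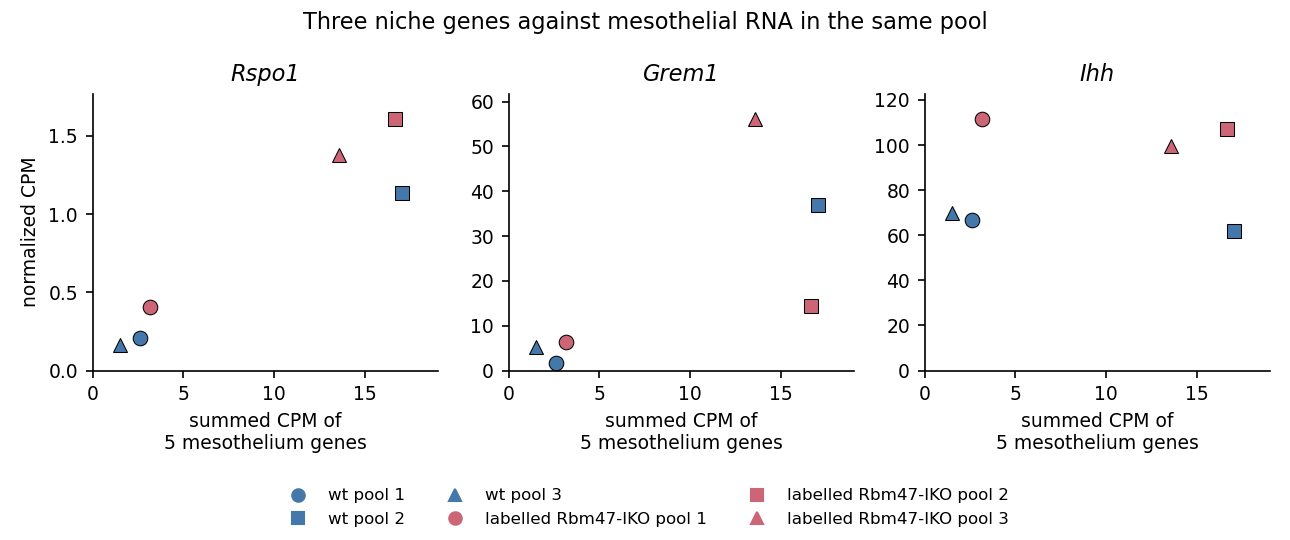
Normalized CPM of Rspo1, Grem1 and Ihh (vertical axes from 0) against the summed CPM of 5 mesothelium genes in the same pool, with color for genotype and shape for pool number. The 3 pools with 13.5 to 17.0 CPM of mesothelial RNA are the 3 highest for Rspo1 and for Grem1, as for 9 of the 10 genes, but not for Ihh.

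Rspo3 (ENSMUSG00000019880, chr10:29453109-29535867, minus strand) encodes R-spondin 3, the main R-spondin of the stroma around intestinal crypts. It was 0.347, 1.03 and 4.01 CPM in the pools labelled Rbm47-IKO and 0.176, 2.61 and 0.302 in wt. The muscle-rich pool led in both genotypes, with an 11.6-fold span within the labelled pools and 14.8-fold within wt. The log2 fold change was 0.79 (SE 1.12, 95% interval -1.81 to 3.39, adjusted p = 0.817), turning to -0.58 without pool 3 labelled Rbm47-IKO and to 2.88 without wt pool 2. Its exons share 404 bases with the antisense gene Gm48159.

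Among 7 other genes of the R-spondin pathway, 4 were tested, and in edgeR none passed in either direction (3 above 0, median log2 fold change 0.24), nor did any by DESeq2. An unadjusted p under 0.05 was reached by 2, against 16.8% of all genes, the ligases Znrf3 (0.47, adjusted p = 0.276) and Rnf43 (0.29, adjusted p = 0.293), both of which are WNT targets that limit WNT receptor levels. Every pool labelled Rbm47-IKO exceeded every wt pool for both, as for 11.7% of all genes. The receptors Lgr5, the crypt stem cell marker, and Lgr4 measured 0.18 (adjusted p = 0.829) and -0.23 (adjusted p = 0.547). Rspo2, Rspo4 and Lgr6 were too low to test, with Rspo2 at 0, 1 and 11 counts in the labelled pools and 1, 24 and 3 in wt.

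**Figure D3:**
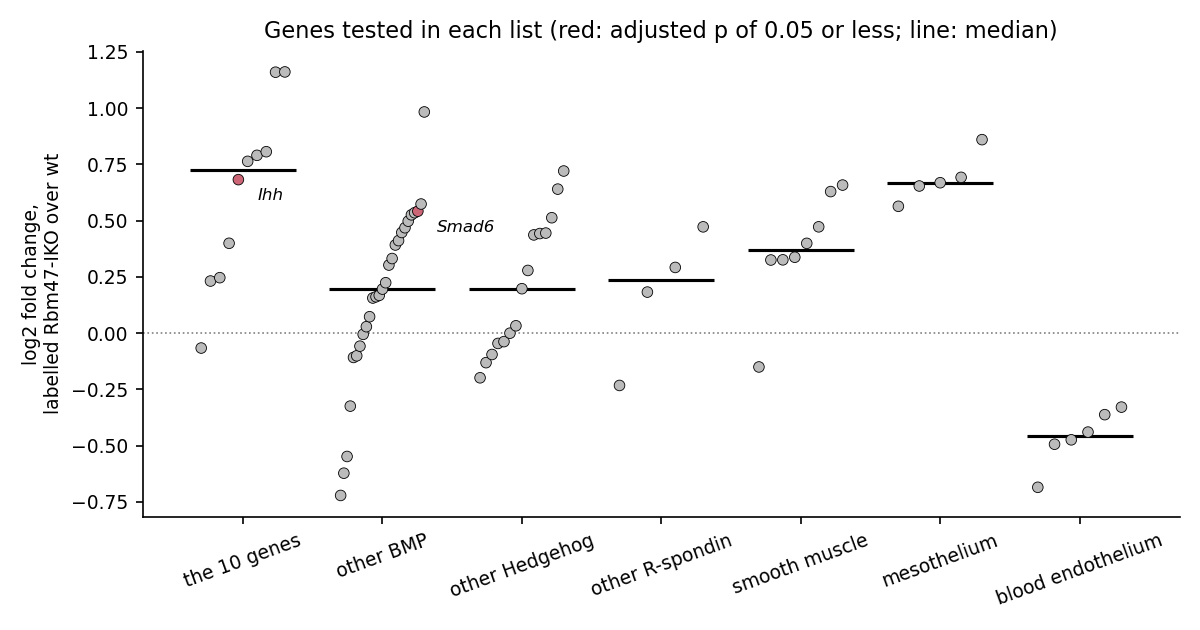
Log2 fold change, pools labelled Rbm47-IKO over wt, of each gene tested among the 10 genes, the other genes of the 3 pathways, and the smooth muscle, mesothelium and blood endothelium lists; points are genes, lines are medians and red marks an adjusted p of 0.05 or less. The red points are Ihh (0.68) and Smad6 (0.54). The mesothelium points all lie above 0 around a median of 0.67, and the endothelial points all lie below 0 around a median of -0.46.

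Per kilobase of exon, Ihh was the most abundant of the 10 at a mean of 35.2 CPM per kb over the 6 pools (range 25.3 to 45.7), and its range met that of no other member. Grem1 (4.85), Ptch1 (2.70) and Bmp4 (1.57) followed, with ranges of 0.383 to 13.5, 1.68 to 3.59 and 0.701 to 3.04 that overlapped. Rspo3 (0.590), Rspo1 (0.421), Chrdl1 (0.365), Gli1 (0.267), Chrd (0.137) and Foxl1 (0.120) all lay below 1 CPM per kb on average, and each neighbour in this order overlapped the next over the pools. Overlap of these ranges does not decide the order within the groups, since the genes share the same pools. The order within single pools was not tested.

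Spread within a genotype set what could be seen. The within-genotype SD of log2 CPM was 0.087 for Ihh, against a median of 0.24 over all genes tested, and 1.96 for Grem1, 1.78 for Rspo3, 1.61 for Chrdl1 and 1.19 for Rspo1. Only 0.268% of genes tested had a larger SD than Grem1, and 5.50% had a smaller one than Ihh. The 95% interval for Grem1 thus spanned from a decrease to an increase of several fold, whereas that for Ihh spanned 1.36- to 1.89-fold.

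**Figure D4:**
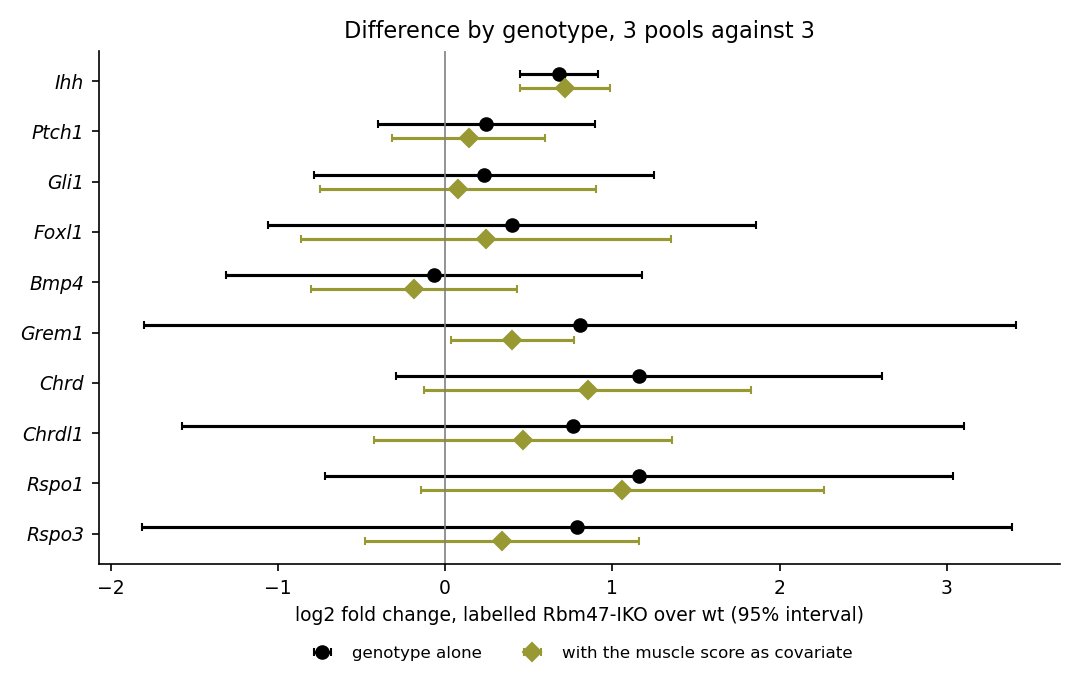
Log2 fold change of the 10 genes, pools labelled Rbm47-IKO over wt, with 95% intervals from edgeR, for genotype alone (black circles) and with the muscle score of each pool as a covariate (olive diamonds). Ihh lies at 0.68 and 0.72 with intervals above 0. The interval of Grem1 is much narrower with the covariate, 0.037 to 0.77 around 0.40, and its edgeR adjusted p is 0.232.

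Several of the stromal genes were highest in the pools richest in muscle. Rspo3, Grem1, Chrd, Chrdl1, Bmp4 and Foxl1, 6 of the 10, were highest in pool 3 among the labelled pools and in pool 2 among wt, as were 16.4% of all genes tested, all 8 smooth muscle genes and all 8 fibroblast genes. Among the labelled pools this was close to a tie for Bmp4 (3.98 in pool 3 and 3.96 CPM in pool 2) and for Foxl1 (14 counts in each), and Rspo1, Ptch1 and Gli1 were highest in pool 2. Among the muscle genes Myh11, the smooth muscle myosin heavy chain, was 142.9, 226.4 and 1383 CPM in the labelled pools and 44.8, 949.8 and 138.2 in wt. The other leading muscle gene, Acta2, encoding smooth muscle actin, was 75.0, 117.4 and 576.0 against 12.1, 550.0 and 50.7. Between genotypes, 0 of 8 muscle genes were past the test in edgeR and in DESeq2, with 0 at an unadjusted p under 0.05 and a median log2 fold change of 0.37. The shares over all genes were 2.7%, 7.62% and 16.8%, so that a count of 0 among 8 genes is near them.

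Slopes on the muscle score, the mean log2 CPM of the 8 muscle genes, were fitted for all genes with genotype in the same model. A rising slope passed the adjusted threshold for 4 of the 10 genes, against 6.07% of all genes tested. These were Grem1 (slope 0.93 log2 units per log2 unit, SE 0.046, adjusted p = 2.88e-06), Rspo3 (0.91, adjusted p = 0.000458), Chrdl1 (0.74, adjusted p = 0.00232) and Bmp4 (0.37, adjusted p = 0.0200). Grem1 and Rspo3 thus rose nearly in proportion to muscle RNA, and Bmp4 rose less steeply. Rspo1 (0.48, adjusted p = 0.142), Chrd (0.36, adjusted p = 0.141), Foxl1 (0.33, adjusted p = 0.327), Gli1 (0.21, adjusted p = 0.435) and Ptch1 (0.15, adjusted p = 0.238) had positive slopes that did not pass.

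On the fibroblast score, the same measure over 8 collagen and stromal genes, 5 of the 10 had a rising slope past the threshold, against 6.49% of all genes: Rspo3 (1.83), Grem1 (1.82), Chrdl1 (1.49), Rspo1 (1.11, adjusted p = 0.0368) and Bmp4 (0.76). The fibroblast genes summed to 178.6, 285.6 and 412.2 CPM in the labelled pools and 110.6, 531.3 and 180.7 in wt, led by Col3a1 at 75.4, 105.0 and 144.3 against 42.9, 196.8 and 73.8 and by Col1a2 and Col6a1. On the mesothelium score 0 of the 10 passed, as did 0.0% of all genes, although 7 of the 10 and 10.7% of all genes had a rising slope at an unadjusted p under 0.05. The scores overlapped without being the same: labelled pool 3 and wt pool 2 were high on muscle (2.35 and 2.15), fibroblast and mesothelium alike, whereas labelled pool 2 had the highest mesothelium score (1.36) at a muscle score of -0.041. The slopes were fitted with 1 score at a time, and no test compared the scores.

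**Figure D5:**
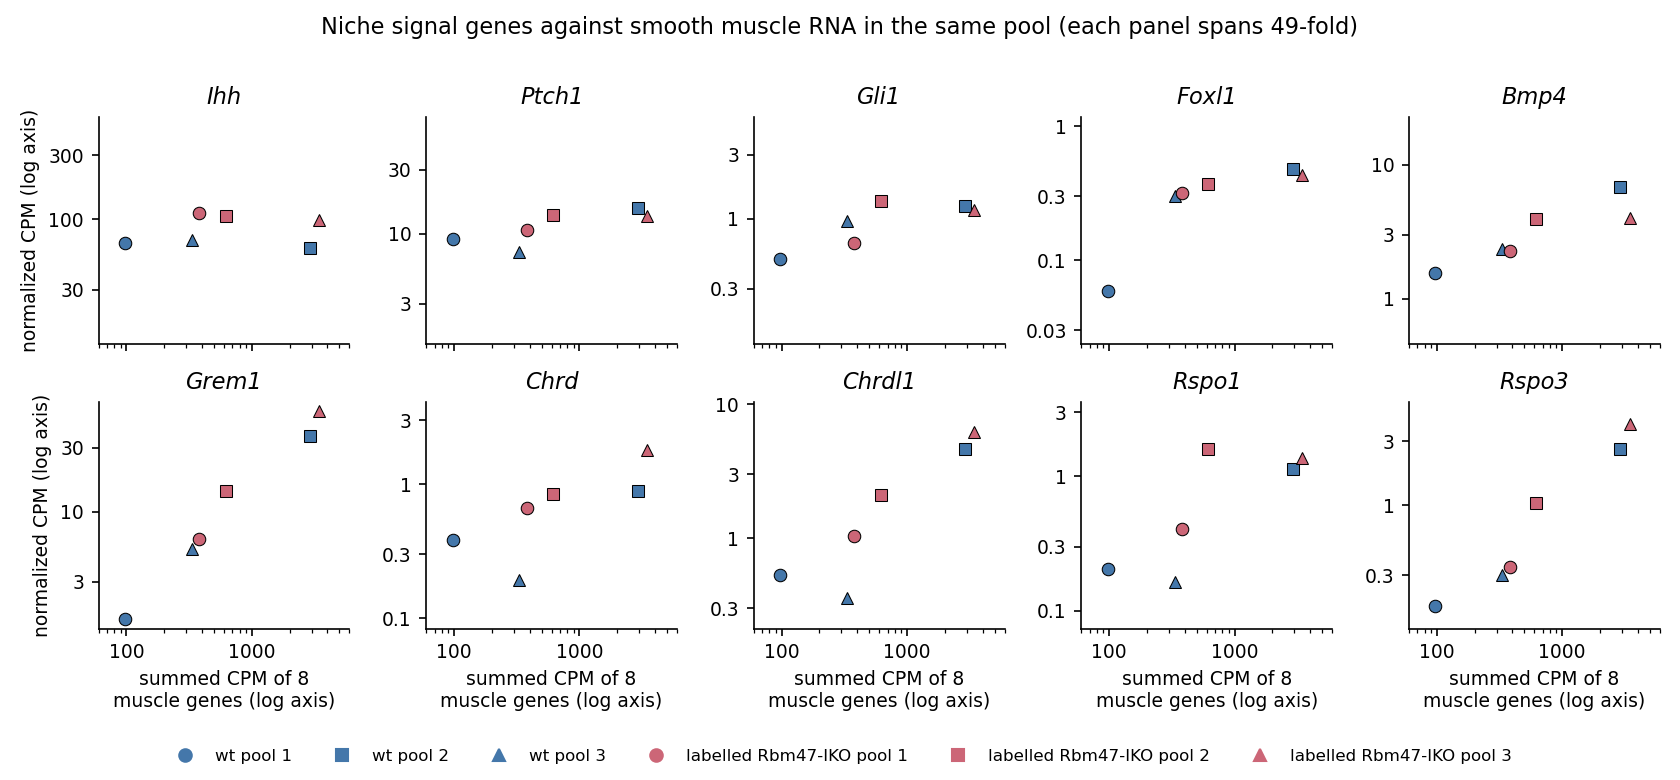
Normalized CPM of the 10 genes against the summed CPM of 8 smooth muscle genes in the same pool, both axes logarithmic and each panel with the same fold range, with color for genotype and shape for pool number. Grem1 and Rspo3 climb with muscle RNA across the 6 pools, whereas the 6 Ihh values split by genotype and not by muscle.

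At like muscle content the genes parted. Between labelled pool 3 and wt pool 2 (muscle sums 3447 and 2911) and between labelled pool 1 and wt pool 3 (380.4 and 332.0), ratios were 1.52 and 1.18 for Grem1, 1.54 and 1.15 for Rspo3, and 2.02 and 3.46 for Chrd. Rspo1 gave 1.22 and 2.46, and Chrdl1 gave 1.35 and 2.92. Those ratios lay above 1 in either pair, while Bmp4 (0.588 and 0.967) and Gli1 (0.940 and 0.692) lay below 1, and Ptch1 and Foxl1 were on both sides. Each ratio compares single pools, chosen after the muscle sums were seen, and has no replicate error.

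The marker lists of other cell types of the lamina propria and wall were summed in the same way. Subepithelial telocyte genes, Foxl1 not counted, summed to 124.3, 142.8 and 163.0 CPM in the labelled pools and 124.8, 155.4 and 131.7 in wt. The largest share was that of Sox6, at 72.7 to 109.5 CPM over the 6 pools, whereas Pdgfra was 11.8, 20.3 and 31.8 in the labelled pools and 7.85, 51.1 and 15.9 in wt, high in the muscle-rich pools. The trophocyte and Pdgfra-low list summed to 111.9, 126.2 and 135.3 against 88.3, 143.2 and 98.1, most of it Cd81. Blood endothelial genes summed to 21.2, 33.6 and 37.9 against 25.5, 73.6 and 33.5, with 0 of 6 log2 fold changes above 0, against 49.3% of all genes, and none of the 6 at an unadjusted p under 0.05. For each of these genes wt pool 2 was the highest pool, and the other wt sums lay within the range of the labelled pools. Lymphatic endothelial genes summed to 16.6 to 23.3 in the labelled pools and 16.5 to 31.1 in wt (Pdpn had no count in any pool), enteric neuron and glia genes to 5.26 to 19.1 and 8.47 to 18.8, interstitial cell of Cajal genes to 28.4 to 37.5 and 16.3 to 39.2, and immune genes to 73.6 to 76.8 and 84.1 to 110.4. With genotype alone in the edgeR fit, no gene of these lists passed, and 1 neuronal and 1 immune gene had an unadjusted p under 0.05 (16.8% of all genes). DESeq2 passed 1 in each of those lists (7.62% of all genes). With the fibroblast score in the edgeR fit 1 neuronal and 1 blood endothelial gene passed (4.91% of all genes). With the muscle score, or without both muscle-rich pools, 1 neuronal gene passed (718 and 327 genes in all). Without wt pool 2, 1 immune gene passed (431 in all).

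Genes most like each of the 10 in pattern were those with the smallest root mean square difference in centred log2 CPM over the 6 pools. For Ihh these were Plekha8 (0.0440) and Sox13 (0.0465). For Bmp4 they were Tmem119 (0.0390) and Col6a2 (0.0483), for Grem1 9330158H04Rik (0.0895) and Ldhb (0.161), and for Rspo3 Tent5b (0.159) and Ldb2 (0.162). Ptch1 was closest to Cd9 (0.0576) and Hsd17b10 (0.0769), Gli1 to Csgalnact1 (0.103) and Pilrb2 (0.103), and Foxl1 to Tmem158 (0.135) and Tmeff1 (0.142). The least close were those of Chrd (Ephx1, 0.205, and Gm24146, 0.220), Chrdl1 (Gpc3, 0.224, and Tmem179, 0.233) and Rspo1 (Smtnl2, 0.232, and Ildr2, 0.250). These likenesses describe 6 pools and carry no test.

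Since Ihh, Ptch1 and Gli1 belong to 1 pathway, RefSeq promoters of GRCm38.p6 were searched for the GLI motif GACCACCCA on either strand, from 250 bases before to 50 after each gene's start. The table held promoters of 6 of the 10 genes (Ihh, Grem1, Rspo1, Ptch1, Bmp4 and Chrd), and 0 of these 6 held the letters, against 0.253% of 32851 promoters. At so low a share, 0 of 6 does not bear on whether GLI proteins act on these genes. Gli1 and Foxl1 were not searched.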

How the data were processed

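RNA of mouse small intestinal mucosa was analysed in 6 libraries, 3 pools per genotype as labelled. Per the labels and the submitters' processing notes, reads were processed with STAR 2.5.1a and featureCounts 1.4.6-p5 (Subread) on GRCm38. The authors deposited for each pool the raw count of reads per gene, beside CPM, which divides each count by its pool's total, and RPKM, which also divides by gene length. Both served only to check the columns and gene lengths. The files do not state the use of strand. Symbols came from GENCODE M21, which held 36639 of 38561 genes, and genes without a symbol held 0.369% of counts.

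Counts were tested with edgeR 4.0.16 in R 4.3.3: filterByExpr (minimum count 10), TMM, quasi-likelihood test and Benjamini-Hochberg adjustment over 16425 genes. The threshold of 0.05 follows the RNA-Seq section of the study's methods, and that section names no test. Normalized CPM uses TMM library sizes. Scores are the mean log2 CPM (prior count 2) of a marker list. DESeq2 1.42.0 and limma 3.58.1 (voom), other scalings and filters, each pool left out, a replicate block, score covariates and omission of both muscle-rich pools were alternatives. Scripts were tested on simulated data. No pools were identical. Depth was 31560320 to 38951830 counts, a floor of 3 counts was used, and floors cover counting error only. Each p-value measures the spread between pools of mice.

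The 10 genes, the lists and the muscle-rich pools were chosen with earlier results of these data known. Named genes were Rbm47, the 10, in each pathway list those past the threshold and the 2 highest and 2 lowest log2 fold changes, the leading 2 muscle and fibroblast genes, and 2 genes most like each of the 10. Id1, Id2, Sufu, Col6a1, Pdgfra, Sox6, Cd81, Pdpn and those too low to test were named after their values were seen.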

Additional observations from a re-analysis of the deposited data

How the results depend on the processing

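The direction for Ihh was the same in every alternative run, with a log2 fold change of 0.64 to 0.73 (adjusted p 0.0401 to 0.137) over the 6 fits that left out 1 pool and 0.67 to 0.74 (5.76e-06 to 0.0724) over the 11 others. It missed the threshold with the pool number as a replicate block (0.68, adjusted p = 0.0724) and without both muscle-rich pools (0.67). The number of the 10 genes that passed was 1, and 0 with the replicate block or without both muscle-rich pools, and 0 to 1 with a pool left out. Genes that passed overall numbered 443, against 1252 by DESeq2, 100 with the replicate block, 718 with the muscle, 806 with the fibroblast and 252 with the mesothelium covariate, and 0 to 431 with a pool left out (0 without pool 2 labelled Rbm47-IKO, where 1729 had an unadjusted p under 0.05). Pools of equal number deviated with correlations of 0.408, -0.0026 and -0.277, against 0.479 between the 2 muscle-rich pools. These correlations show no pairing by number. They cannot exclude it, since they run over all genes and also reflect the tissue content of the pools.

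Signs turned with a pool left out for Rspo3 (-0.58 to 2.88), Grem1 (-0.50 to 2.89) and Chrdl1 (-0.21 to 2.80), lowest without pool 3 labelled Rbm47-IKO and highest without wt pool 2, and for Bmp4 (-0.42 to 0.80), Gli1 (-0.054 to 0.53) and Foxl1 (-0.063 to 1.01), lowest without wt pool 1 and highest without wt pool 2. Bmp4 also turned to 0.15 with limma-voom, 0.17 with the replicate block and 0.66 without both muscle-rich pools. Gli1 was -0.098 with the mesothelium covariate, which was added after the data were seen, as were the slope tests and the like-muscle pairs. The cause was not tested. Other BMP genes past the threshold numbered 3 by DESeq2 (7.62% of all genes), 2 with the fibroblast covariate (4.91%) or without both muscle-rich pools, 0 with RLE scaling, the block or the mesothelium covariate, and 0 to 2 with a pool left out. Chrd and Foxl1 had no value under the stricter filter. Foxl1, Rspo1 and Chrd had few counts, and DESeq2 gave them no adjusted p.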
